A study of Mus musculus with 4 samples.

Results

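Calcineurin is a calcium-activated protein phosphatase, and the NFAT proteins are the transcription factors that it switches on in T cells. The account covers 10 genes of this pathway, chosen by symbol: the catalytic subunit genes Ppp3ca, Ppp3cb and Ppp3cc, the regulatory subunit gene Ppp3r1, the factors Nfatc1, Nfatc2 and Nfatc3, and the inhibitor genes Rcan1, Rcan3 and Cabin1. All 10 were found among the 23238 gene symbols of the count tables, and all 10 were among the 11464 genes with enough counts to be tested. The rule goes by name and leaves out the NR4A and EGR genes that NFAT induces, and it was written with earlier results of these libraries known.

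The libraries came from CD4+ T cells of spleen and lymph nodes of mice labelled WT or PDK4 KO, with 2 libraries per genotype, and asked how gene expression differs without Pdk4, a kinase that inhibits mitochondrial pyruvate dehydrogenase. All mice were on the C57BL/6j strain. All cultures started from naive cells isolated with magnetic beads and were stimulated through CD3 and CD28 with added IL-2 for 48 hours, so the wild-type cultures also received IL-2 and no unstimulated cells were compared. The labels give neither the age of the mice nor the cells in which Pdk4 was deleted, and they do not tell whether replicates were separate mice or cultures. Every p-value here therefore rests on the spread between 2 libraries of a genotype, which may be technical. The fit draws the spread of each gene toward that of all genes. A p-value, SE or interval is thus no measure of the gene's own replicate spread alone.

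In a resting T cell the NFAT proteins are phosphorylated and held in the cytoplasm. Engagement of the T cell receptor raises cytosolic calcium, calcium-loaded calmodulin activates calcineurin, and calcineurin strips phosphates from NFAT, which then enters the nucleus and acts with partners such as AP-1 on cytokine genes including Il2. Calcineurin is the target of the immunosuppressants cyclosporin A and tacrolimus, and its inhibitor Rcan1 is itself induced through NFAT, which forms a negative feedback.

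Libraries held 8837810 to 9739624 counts, and a floor of 3 counts corresponded to 0.308 to 0.339 CPM (the count divided by the library total in units of 1e6) in a single library, counting error only. All other CPM values are TMM-normalised, on totals over the tested genes scaled by the TMM factors. Pdk4 had 1 and 0 counts in wild type and 0 and 2 in knockout, all under that floor, so its counts give no check of the genotype. All 9 CD4 T cell markers of a list with Cd4, Cd3e and Cd28 had counts, and their summed level was 2267 to 2322 CPM in wild type and 2294 to 2336 in knockout, with 1 of 9 called higher, 0 called lower and 3 with an unadjusted p under 0.05. The one called higher was Cd5 (log2 fold change 0.29, adjusted p = 0.0341 by edgeR), named after its values were seen. The others with such an unadjusted p were Cd3d (-0.16) and Cd3g (-0.28), lower in knockout, not called and also named after their values were seen. The libraries of the genotypes differed in transcripts listed as markers of other cell types. The 13 B cell markers summed to 259.6 to 303.8 CPM in wild type and 144 to 151 in knockout, with 10 of 12 tested ones called lower, Pax5 at 0 in every library and Cd22 at 0 in both knockout libraries. The 10 markers of CD8 T and NK cells summed to 563 to 565 and 362 to 406 CPM, with 1 of 9 tested ones called lower. That gene was Gzma, named after its values were seen. Gzma went from 219 ± 0.303 to 63.7 ± 17.6 CPM (SD, n = 2 each) and made up most of the gap. Of the 9 tested ones, 8 had a log2 fold change below 0, and Gzma and Cd8a had an unadjusted p under 0.05. Cd8a, also named after its values were seen, had means of 2.79 and 0.477 CPM, with the genotypes apart. It was not called (-2.52, adjusted p = 0.119 by edgeR). Nkg7 had a mean of 122 CPM in both genotypes, and only Eomes (0.24) was above 0. The 8 myeloid markers summed to 26.4 to 29.8 and 11.7 to 14.5 CPM, with 1 of 3 tested ones called lower. That gene, Fcer1g, named after its values were seen, made up most of each sum, with means of 20.4 and 9.42 CPM. Lyz2, Cd14, Csf1r, Itgam and Adgre1 had no more than 6 counts in any library and were not tested. In such bulk samples, the cells that made a transcript are not known, and they may include the CD4 T cells themselves. Fewer cells of a type and less RNA per cell cannot be told apart. The part of these shifts in the differences given here was not tested.

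None of the 10 components passed the test between genotypes. By edgeR (quasi-likelihood F test, Benjamini-Hochberg adjusted p under 0.05 over all 11464 genes), 0 rose and 0 fell, where 2.66% of all tested genes were called (305 genes). The count was also 0 with DESeq2, which called 2.05% of genes, and with limma-voom, which called 2.81%, and 1 of the 10 genes, Ppp3ca, had an unadjusted p under 0.05, against 13.5% of all genes. Fitted log2 fold changes, knockout minus wild type, ran from -0.49 for Ppp3ca to 0.53 for Rcan1, with 5 above 0 and 5 below. Their median was -0.01, and it was 0.00041 over all tested genes. Wild-type and knockout libraries were fully apart in 6 of the 10 genes and in 43.4% of all tested genes.

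Levels are given as TMM-normalised CPM. The libraries were made to read the 3' ends of polyadenylated transcripts, so a level is not scaled by gene length and stands for the number of transcripts. On this scale the order of the mean levels over the 4 libraries ran from Nfatc3 (321 CPM) through Ppp3r1 (176), Nfatc1 (104), Rcan3 (77.9), Cabin1 (65.7), Ppp3cb (47.1), Ppp3ca (45.0), Ppp3cc (34.2) and Nfatc2 (24.2) to Rcan1 (11.95). Nfatc3 was thus the most abundant and Rcan1 the least abundant of these mRNAs in both genotypes. The ranges of the 4 libraries overlapped between the neighbours Rcan3 and Cabin1, Ppp3cb and Ppp3ca, and Ppp3ca and Ppp3cc. The ranges alone therefore do not order these neighbours, and they ignore that both genes were counted in the same library. Compared within each library, Rcan3 was above Cabin1 in 4 of 4 libraries, and Ppp3cb above Ppp3ca in 3 of 4. Ppp3ca was above Ppp3cc in 4 of 4, but with 350 against 349 counts in knockout replicate 2. The ranges of all other neighbours were apart.

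**Figure D1:**
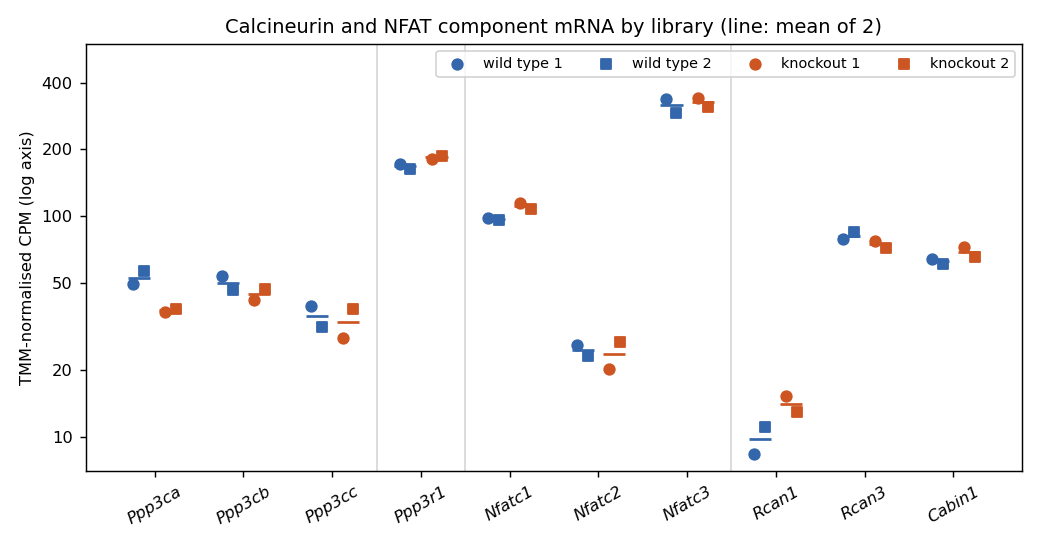
TMM-normalised CPM (log axis) of the 10 genes in each library, with circles for replicate 1, squares for replicate 2 and a line at the mean of each genotype (n = 2). Nfatc3 lies highest, at 293 to 342 CPM, and Rcan1 lowest, at 8.42 to 15.3 CPM, and the genotypes lie farthest apart on this axis for Rcan1 and Ppp3ca.

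The catalytic A subunit carries the phosphatase site and the calmodulin-binding region of calcineurin, and mice have a gene for each of its isoforms alpha, beta and gamma. Ppp3ca, the alpha isoform (chromosome 3, 136670124 to 136937727, GRCm38), had 431 and 532 counts in wild type, against 359 and 350 in knockout. Its level was 49.0 and 56.2 CPM in wild-type replicates 1 and 2, and 36.7 and 38.1 CPM in knockout replicates 1 and 2. Both knockout libraries lay under both wild-type libraries.

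The means were 52.6 ± 5.10 and 37.4 ± 0.971 CPM (SD, n = 2 each), which the fit gave as -0.49 on the log2 scale (SE 0.148, 95% interval -0.79 to -0.19). By p-value Ppp3ca was the 349th of the 11464 genes in edgeR's test, and it did not pass (adjusted p = 0.0701). The adjusted p lay between 0.0539 and 0.472 over 13 alternative settings of the analysis. Leaving out wild-type replicate 2, which had the highest count, gave -0.39 (adjusted p = 0.472), and leaving out wild-type replicate 1 gave -0.59 (adjusted p = 0.066).

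Ppp3cb, the beta isoform (chromosome 14, 20499364 to 20546573), stood at 53.3 and 46.4 CPM in wild type and at 41.7 and 46.9 in knockout. The ranges overlapped, with 1 knockout library between the wild-type ones. Its log2 fold change was -0.17 (SE 0.146, 95% interval -0.47 to 0.13, adjusted p = 0.682 by edgeR). Ppp3cc, the gamma isoform (chromosome 14, 70217865 to 70289471), stood at 39.2 and 31.5 CPM in wild type and at 28.02 and 37.98 in knockout. Replicates within each genotype were farther apart than the genotype means, at 35.4 ± 5.48 and 33.0 ± 7.04 CPM (SD, n = 2 each). On the log2 scale the difference was -0.10 (SE 0.178, 95% interval -0.46 to 0.26, adjusted p = 0.882), and it had the opposite sign without wild-type replicate 1 (0.07) or without knockout replicate 1 (0.10).

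The A subunit mRNA was spread over all 3 genes, with no single main isoform. Ppp3ca made up 34.6% and 41.9% of the summed catalytic counts in wild type and 34.5% and 31.0% in knockout. Ppp3cb made up 37.7% and 34.6% in wild type, against 39.2% and 38.1% in knockout, and Ppp3cc 27.7% and 23.5%, then 26.3% and 30.9%. Both knockout shares of Ppp3ca were under both wild-type shares. The share in knockout replicate 1 lay within the exact 95% binomial interval of wild-type replicate 1 (32.0% to 37.3%). That in knockout replicate 2 lay under the intervals of both wild-type libraries. These intervals cover counting error only and not the spread between libraries. The Ppp3ca interval of wild-type replicate 2 (39.2% to 44.7%) did not overlap that of wild-type replicate 1. For Ppp3cb both knockout shares were above both wild-type shares. They lay within the interval of wild-type replicate 1 (35.0% to 40.4%) but above that of wild-type replicate 2 (31.98% to 37.28%). The shares of Ppp3cc overlapped between genotypes. The summed level of the 3 genes was 142 and 134 CPM in wild type and 106 and 123 CPM in knockout. It was lower in both knockout libraries, and no test was made of a sum over chosen genes.

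Ppp3r1 encodes calcineurin B, the small calcium-binding subunit that every catalytic isoform needs (chromosome 11, 17159263 to 17200375). It had 172 and 163 CPM in wild type and 182 and 187 in knockout, the second highest level of the 10. Both knockout libraries lay above both wild-type libraries. Its fitted difference was 0.14 on the log2 scale (SE 0.0895, 95% interval -0.05 to 0.32) and did not pass (adjusted p = 0.549 by edgeR). In the annotation 462 bases of its exons are shared with exons of Wdr92 on the same strand, so the split of reads between them is uncertain. Wdr92 had 178 and 218 counts in wild type and 209 and 250 in knockout, against 1513 and 1541, and 1775 and 1716, for Ppp3r1.

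With catalytic counts lower and Ppp3r1 counts higher, the number of Ppp3r1 counts per catalytic count was 1.22 and 1.21 in wild type, against 1.71 and 1.52 in knockout. The genotypes did not overlap, and the exact 95% binomial intervals of the knockout libraries (1.58 to 1.84 and 1.41 to 1.64) lay above those of the wild-type libraries (1.13 to 1.31 in both). Such intervals cover counting error only and not the spread between cultures. This ratio is taken within a library and does not depend on the scaling. It was chosen after the values were seen and has no test, and its Ppp3r1 part carries the uncertainty just given.

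**Figure D2:**
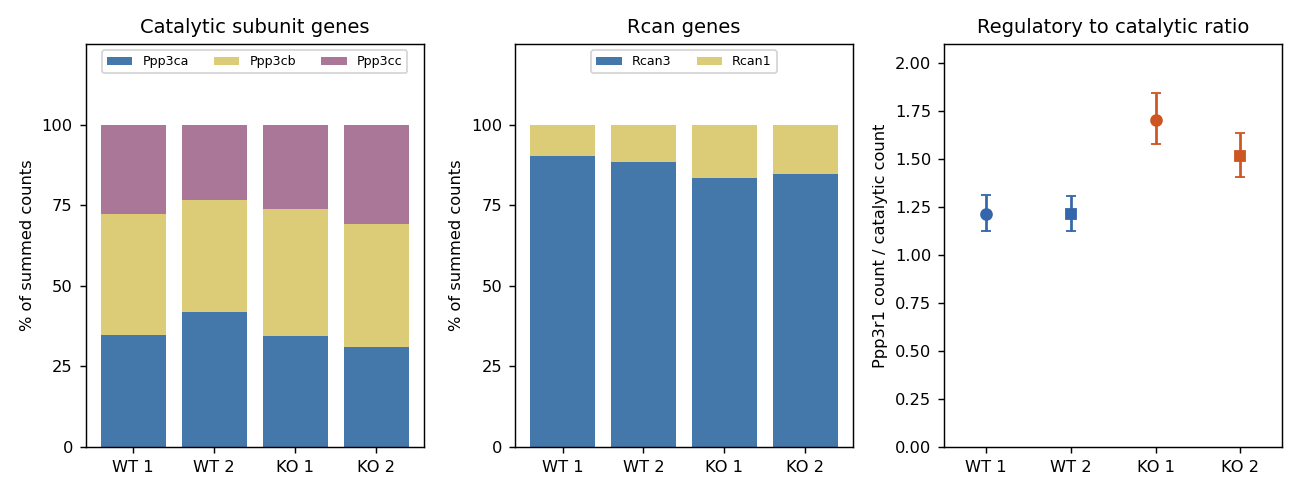
Left and middle, percent of the summed counts that each catalytic subunit gene and each Rcan gene made up in each library; right, Ppp3r1 counts per catalytic count with exact 95% binomial intervals. The ratio is 1.22 and 1.21 in the wild-type libraries and 1.71 and 1.52 in the knockout libraries, and the share of Rcan1 is 9.66% and 11.6% against 16.6% and 15.4%.

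The NFAT genes encode the DNA-binding factors that calcineurin dephosphorylates. Nfatc3, also called NFAT4 (chromosome 8, 106058840 to 106130537), was at 339 and 293 CPM in wild type and 342 and 311 CPM in knockout. The wild-type libraries lay on both sides of knockout replicate 2. Its log2 fold change of 0.05 had the narrowest interval of the 10 genes (SE 0.0821, 95% interval -0.12 to 0.21, adjusted p = 0.88 by edgeR). The sign turned without wild-type replicate 2 (-0.06) or knockout replicate 1 (-0.03). The end of the gene overlaps that of Esrp2 on the other strand by 219 exon bases, and Esrp2 had 0 counts in every library.

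Nfatc1, also called NFAT2, is known to be induced in activated T cells through NFAT acting on its own gene. It was at 97.9 and 95.8 CPM in wild type and 115 and 107 CPM in knockout. Both knockout libraries were higher than both wild-type libraries, with means of 96.8 ± 1.54 and 111 ± 5.34 CPM (SD, n = 2 each). The log2 fold change of 0.20 (SE 0.106, 95% interval -0.02 to 0.42) did not pass the test (adjusted p = 0.421 by edgeR).

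Nfatc2, also called NFAT1, is a main NFAT protein of resting T cells (chromosome 2, 168476410 to 168601657). It was the scarcest of the 3 factors, at 26.05 and 23.3 CPM in wild type and 20.4 and 27.0 CPM in knockout. The knockout libraries lay outside the wild-type range on either side. Its log2 fold change was -0.06 (SE 0.203, 95% interval -0.47 to 0.35, adjusted p = 0.951), and the sign turned without wild-type replicate 1 (0.02) or knockout replicate 1 (0.13).

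Of the summed counts of these factors, Nfatc3 made up 69.8% to 73.2% in the 4 libraries, Nfatc1 21.1% to 24.1% and Nfatc2 4.26% to 6.06%. The order Nfatc3, Nfatc1, Nfatc2 held in all 4 libraries. These shares compare transcripts and give no measure of protein or of its place in the cell, which is where calcineurin acts on NFAT.

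Rcan1 encodes an inhibitor that binds calcineurin (chromosome 16, 92391953 to 92470867). It was the least abundant of the 10 genes, with 74 and 105 counts in wild type and 150 and 119 in knockout. These counts gave 8.42 and 11.1 CPM in wild type and 15.3 and 13.0 CPM in knockout. Both knockout libraries were higher than both wild-type libraries.

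The means were 9.76 ± 1.90 and 14.1 ± 1.69 CPM (SD, n = 2 each). Rcan1 had the largest fitted difference upward of the 10 genes, with a log2 fold change of 0.53, and also the widest interval (SE 0.278, 95% interval -0.03 to 1.10). It did not pass edgeR's test (adjusted p = 0.405), and at this depth the interval spans 0.978-fold to 2.14-fold. Leaving out wild-type replicate 1 gave 0.35, and leaving out wild-type replicate 2 gave 0.75.

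Rcan1 transcripts begin at more than 1 place, and the internal start is the one known to respond to calcineurin and NFAT. The 3' counts add up transcripts from every start and cannot separate them. The 250 bases before each start, from RefSeq on GRCm38.p6, are shown because Rcan1 had the largest fitted difference upward and its counts do not tell which start they come from. Capitals mark GGAAA, the core letters of NFAT sites, or its reverse complement TTTCC. Both strands were searched, and the same letters are also part of sites of other factors. The window labelled first-exon lies at chr16:92466170-92466419 and the internal one at chr16:92400079-92400328, both on the minus strand. On this strand the gene's annotated outer end, 92470867, lies upstream of both windows. The counts may therefore also hold transcripts from a start not shown.
Rcan1, first-exon start: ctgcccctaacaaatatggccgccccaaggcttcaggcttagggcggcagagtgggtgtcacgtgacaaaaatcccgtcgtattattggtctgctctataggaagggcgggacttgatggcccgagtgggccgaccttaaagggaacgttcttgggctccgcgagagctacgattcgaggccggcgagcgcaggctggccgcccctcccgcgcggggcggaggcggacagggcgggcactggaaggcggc
Rcan1, internal start: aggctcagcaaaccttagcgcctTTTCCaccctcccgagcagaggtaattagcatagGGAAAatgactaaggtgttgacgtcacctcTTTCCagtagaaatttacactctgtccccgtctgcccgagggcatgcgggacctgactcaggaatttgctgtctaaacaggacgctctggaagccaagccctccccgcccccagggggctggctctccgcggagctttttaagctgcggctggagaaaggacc
The internal window held 3 matches, whose first letters lay 227, 193 and 163 bases before the start, and the first-exon window held 0. Of all 32851 promoter windows of this length, 6.39% held at least 3 matches and 55.6% at least 1. A match describes letters and is no proof of a site. Promoters of 7 of the 10 genes were found in the table. Those of Ppp3ca and Ppp3cc were not found, and that of Nfatc1 was left out of the search. Among the other promoters found, 3 matches were also present before 1 of the starts of Nfatc2 and before Ppp3cb, and 0 before Ppp3r1 and Cabin1.

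Rcan3, a relative of Rcan1 that also binds calcineurin (chromosome 4, 135412308 to 135433853), was far more abundant. It had 78.7 and 84.3 CPM in wild type and 77.2 and 71.4 CPM in knockout. The knockout libraries were lower without overlap, but the gap between the nearest libraries was small beside the spread within each genotype. The log2 fold change was -0.13 (SE 0.119, 95% interval -0.38 to 0.11, adjusted p = 0.695 by edgeR). Rcan1 made up 9.66% and 11.6% of the summed counts of both Rcan genes in wild type and 16.6% and 15.4% in knockout. The exact 95% binomial intervals of wild-type replicate 2 (9.61% to 13.9%) and knockout replicate 2 (12.9% to 18.1%) overlapped.

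Cabin1 encodes a large nuclear protein that binds calcineurin and also represses MEF2 factors (chromosome 10, 75646112 to 75764341). It was at 64.2 and 60.8 CPM in wild type and 72.4 and 65.3 CPM in knockout. Knockout libraries were higher without overlap, by a small margin between wild-type replicate 1 and knockout replicate 2. The log2 fold change of 0.14 (SE 0.127, 95% interval -0.12 to 0.40) did not pass the test (adjusted p = 0.698 by edgeR).

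**Figure D3:**
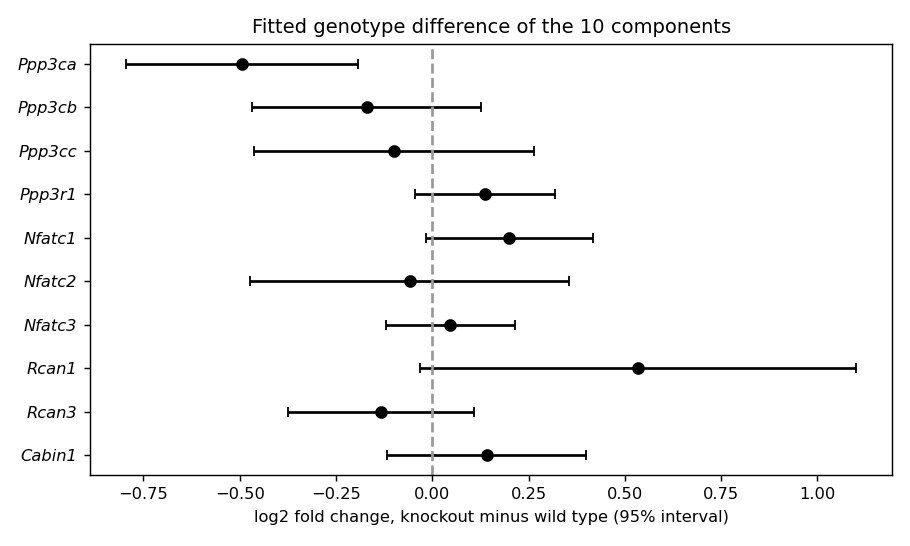
Fitted log2 fold change (knockout minus wild type) of each gene with its 95% interval from edgeR's fit of 2 against 2 libraries, not adjusted for the number of genes. The interval of Ppp3ca, -0.79 to -0.19, is the only one of the 10 that leaves out 0, and its adjusted p is 0.0701.

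The intervals set what these libraries could show. For Nfatc3 the interval reached 1.16-fold upward and 0.92-fold downward. For Nfatc2 it reached 1.28-fold and 0.721-fold, and for Ppp3ca 0.875-fold and 0.577-fold. A p that missed the threshold does not show that the genotypes had the same level of these genes.

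Of the relatives of the 10 genes, 3 were at or near 0. Ppp3r2, a regulatory subunit gene of testis, had 0 counts in each library, and Nfatc4 and Rcan2 had no more than 2 counts in any library, under the floor of 3 counts. Nfat5, a relative that responds to osmotic stress and is not controlled by calcineurin, had 183 and 145 CPM in wild type and 169 and 176 in knockout, and did not pass (adjusted p = 0.833 by edgeR).

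Among 9 tested genes of 10 listed as other calcineurin binders and partners, 0 rose, 1 fell and 8 did not pass, with a median log2 fold change of -0.08 (0.00041 over all genes), where 1.21% of all tested genes fell. The member that fell was Akap5, an anchoring protein that holds calcineurin and protein kinase A near their substrates (chromosome 12, 76324891 to 76334153). It had 1124 and 933 CPM in wild type and 737 and 886 CPM in knockout, and the genotypes did not overlap. The log2 fold change was -0.34 (SE 0.0783, adjusted p = 0.00864 by edgeR). The call was lost with DESeq2 (adjusted p = 0.594), without wild-type replicate 1 (-0.20, adjusted p = 0.159) and without knockout replicate 1 (-0.22, adjusted p = 0.381). In the same libraries the B cell markers were lower in knockout, at 144 to 151 against 259.6 to 303.8 CPM, and their part was not tested. Fkbp1a, which encodes the tacrolimus-binding protein FKBP12, had 1034 and 1111 CPM in wild type and 920.0 and 965.5 in knockout. Its log2 fold change of -0.19 did not pass (adjusted p = 0.128), except without wild-type replicate 1 (adjusted p = 0.0403).

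Upstream and downstream of calcineurin, 0 of the 12 genes for calcium sensors, calcium entry and release passed the test, with a median log2 fold change of 0.02, and 3 of them had an unadjusted p under 0.05, where 2.66% of all tested genes were called and 13.5% had such a p. Calm2, a gene for calmodulin, was at 326 and 315 CPM in wild type and at 293 and 270.3 CPM in knockout (-0.19, adjusted p = 0.268 by edgeR). Of 8 tested genes among 9 for NFAT kinases and nuclear export, 0 passed, 0 had an unadjusted p under 0.05, and the median was 0.13. The kinase genes Csnk1a1 and Gsk3b, whose products rephosphorylate NFAT, differed by -0.01 and -0.04 on the log2 scale (adjusted p = 0.97 and 0.902). The counts for both lists were also 0 with DESeq2 and with limma-voom.

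Genes known as NFAT targets moved in both directions. Of 17 tested targets among 18, 6 rose, 2 fell and 9 did not pass, with a median log2 fold change of 0.37, and 1.45% and 1.21% of all tested genes rose and fell. The list was written with earlier results of these libraries known, so its count is no independent evidence. Those that rose were the cytokine genes Il2 (2.56) and Il3 (2.46), the nuclear receptor genes Nr4a2 (0.78), Nr4a3 (0.65) and Nr4a1 (0.46), and Egr3 (0.68).

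Il2, the T cell growth factor, was at 6.48 and 5.71 CPM in wild type and 32.1 and 39.6 CPM in knockout (adjusted p = 1.54e-08 by edgeR). Those that fell were Il21, a cytokine of follicular helper cells, from 71.2 and 82.8 to 31.9 and 33.2 CPM (-1.24, adjusted p = 3.64e-07), and Irf4, a factor of effector differentiation (-0.31, adjusted p = 0.00513). Il2ra, which encodes the high-affinity IL-2 receptor chain and was the most abundant target, was at 1173 and 1226 CPM in wild type and 1063 and 1008 in knockout (-0.21, adjusted p = 0.0557, and called in 7 of 13 alternatives). Without wild-type replicate 2 or knockout replicate 2 the calls of Nr4a1 (adjusted p = 0.142 and 0.118) and Egr3 (0.109 and 0.119) were lost, which left 4 rises. Without knockout replicate 1 Irf4 was not called (0.177), which left 1 fall. The shift of B cell markers given for Akap5 was present in these libraries too, and its part was not tested.

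**Figure D4:**
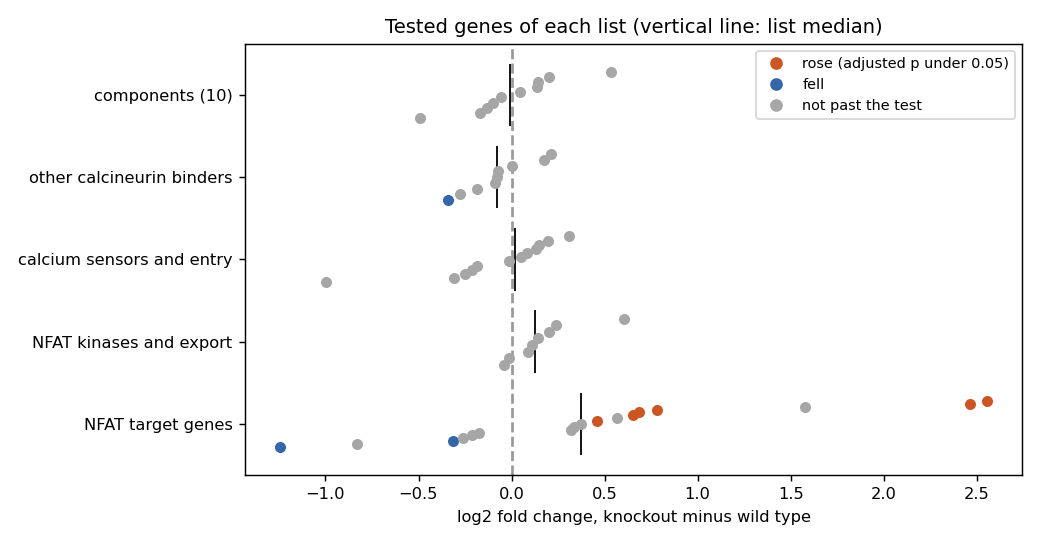
Fitted log2 fold change (knockout minus wild type) of each tested gene in the 10 components and 4 other lists of the pathway, 1 point per gene, coloured where edgeR's adjusted p was under 0.05, with a vertical line at the list median. The components run from -0.49 to 0.53 with 0 called, and the NFAT targets from -1.24 to 2.56 with 6 called higher and 2 lower.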

How the data were processed

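RNA of 4 libraries was prepared with the Lexogen QuantSeq kit from 500 ng of total RNA, per the labels' protocols. The authors deposited raw counts per gene symbol, 1 table per library with 23282 rows. Bowtie2, edgeR and the mm10 build were used, per the submitters' processing notes, with no role or version. The sources used here do not give the counting tool, annotation or use of strand, so reads of overlapping or near-identical genes may be split between them. Counts of 35 repeated symbols were summed, none of them a gene named here.

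Genes were filtered with filterByExpr and compared by genotype alone with edgeR 4.0.16 in R 4.3.3 (two-sided quasi-likelihood F test, TMM scaling, Benjamini-Hochberg adjustment over 11464 genes, called under 0.05). "Rose" and "fell" are used for called genes. The SE is the size of the log2 fold change divided by the square root of F, and the 95% interval uses the t distribution with the fit's degrees of freedom. The fit was tested on simulated data. Shares of counts carry exact (Clopper-Pearson) binomial intervals. DESeq2 1.42.0, limma-voom (limma 3.58.1), 3 other scalings, 2 other filters, a replicate block, leaving out Rn45s and leaving out each library were tried, 13 alternatives in all.

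The 10 genes and the lists were chosen with earlier results of these data known. From each other list every called gene and the 2 most abundant tested genes are named, except 1 gene that is not reported here, with relatives under the floor and overlapping genes named besides. Gene positions were taken from GENCODE vM21 (GRCm38, which is the mm10 assembly). Libraries of 1 genotype differed by more than sampling noise, at chi-squares of 5.40 (wild type) and 5.45 (knockout) per degree of freedom.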

Additional observations from a re-analysis of the deposited data

How the results depend on the processing

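With 2 libraries per genotype, single libraries carry weight. None of the 10 components was called in any of the 13 alternatives, in which 1.43% to 3.09% of all tested genes were called. Leaving out 1 library at a time, the log2 fold change ran from -0.34 to 0.10 for Ppp3cc and from -0.28 to 0.13 for Nfatc2. For Nfatc3 it ran from -0.058 to 0.16. Each of these changed sign, and the other components kept their sign. Of the named genes outside the components, Nfat5 (-0.086 to 0.24) and Csnk1a1 (-0.074 to 0.043) also changed sign. The number of all genes called higher ran from 92 to 148 and of those called lower from 75 to 145, against 166 and 139. The count of other calcineurin binders that fell ran from 0 to 1 (the 1 without wild-type replicate 1 being Fkbp1a and not Akap5) and was 0 with DESeq2, and that of NFAT targets that fell ran from 1 to 3. With library size as the only scaling, Csnk1a1 (0.0081) changed sign. The median of the components ran from -0.07 to 0.11. The causes were not tested.

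Replicate numbers are shared between genotypes, but the labels do not say that they mark a shared mouse or day, and the deviations of same-numbered libraries from their genotype means had a correlation of -0.02 across 8083 genes of at least 10 CPM. With a replicate block 142 genes rose and 118 fell, 0 of the components was called, and Ppp3ca had a log2 fold change of -0.49 (adjusted p = 0.0943 by edgeR).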
